A study of Mus musculus with 39 samples.

Results

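Livers of wild-type mice given PFOA (perfluorooctanoic acid, a long-lived fluorinated fatty acid analogue) at 1 mg/kg were compared with livers of wild-type mice given water. The arrays were chosen by their titles: replicates 1, 2 and 4 of wild type with PFOA at 1 mg/kg against the 4 replicates of wild type with 0 mg/kg PFOA, 7 arrays of the 39 in the series. A further array, labelled as replicate 3 of the treated group, was left out because its profile is that of a PPARα-null liver, and it is shown only as a check.

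All mice were adult males on a 129SV background and were dosed by gavage on 7 consecutive days. PFOA was given as its ammonium salt in deionised water, and the controls received the water alone. Values are also given for wild type at 3 mg/kg (4 arrays), and for PPARα-null mice on water (4 arrays) and on 1 mg/kg (4 arrays), the null mice carrying no working PPARα per the labels. The labels do not say how the null allele was made. The series names 4 animals per group. Total liver RNA was hybridised to Applied Biosystems Mouse Genome Survey arrays, and each value is a log2 signal. In bulk liver RNA, fewer cells of a type and less RNA per cell cannot be told apart.

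PPARα is a nuclear receptor that binds fatty acids and pairs with RXR on DNA. In rodent liver its activation is known for raising the enzymes that oxidise fatty acids in peroxisomes, mitochondria and the endoplasmic reticulum, and for enlarging the peroxisome compartment. CAR and PXR are separate nuclear receptors that drive drug-metabolising cytochromes P450, and PFOA has been studied as a ligand or activator for both kinds of pathway.

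Cox6b2, a cytochrome c oxidase subunit isoform, separated the genotypes and was used to check the labels. Its log2 signals were 14.52, 13.29, 14.09 and 13.90 on water and 16.38, 16.95 and 16.57 in treated replicates 1, 2 and 4. On the array labelled replicate 3 it was 9.06, where the null groups averaged 8.44 on water and 8.11 on PFOA. A set of 31 probes differed between null and wild type both on water and on methylcellulose (limma, adjusted p under 0.05). At these probes positions were scaled so that wild-type vehicle is 0 and null vehicle is 1, each the mean of its water and methylcellulose arrays. The median position was 0.905 for the array labelled replicate 3, against -0.407, -0.517 and -0.464 for the other treated arrays and 0.881 to 0.964 for null mice on the same dose. The Ppara probe averaged 16.20 ± 0.48 (SD, n = 4) in wild type and 15.21 in null mice on water, and its place relative to the deleted part is not known here, so it checks nothing.

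**Figure D1:**
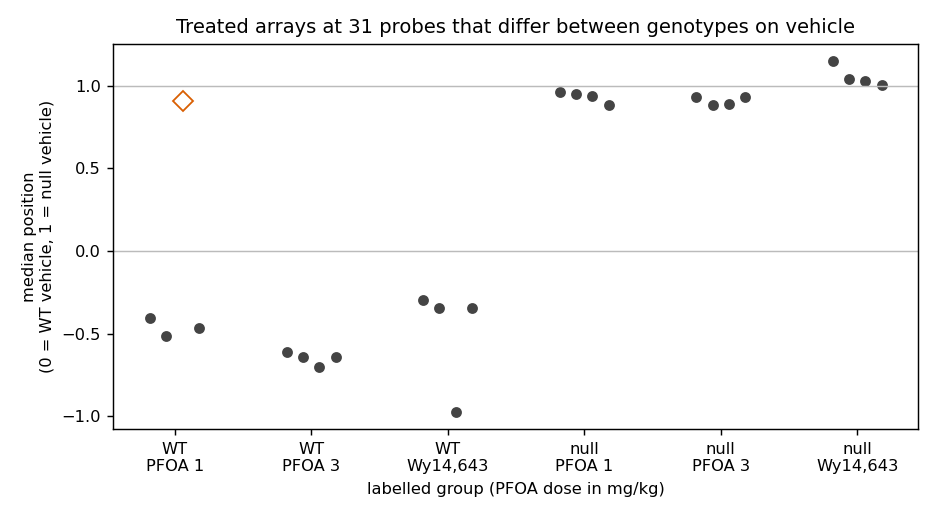
Median position of each treated array between wild-type vehicle (0) and null vehicle (1) over 31 probes that separate the genotypes on vehicle, by labelled group. The open diamond, labelled as replicate 3 of wild type on 1 mg/kg, stands at 0.905 among the null arrays, and the 3 other arrays of its label lie between -0.517 and -0.407.

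Of 25295 probes tested with limma, 249 (0.984%) differed between 1 mg/kg PFOA and water at an adjusted p under 0.05. Higher signals made up 209 of these (0.826% of the probes tested) and lower signals 40 (0.158%). The median log2 difference was 1.42 for the probes that rose, -1.37 for those that fell and -0.0013 for all probes. At least 2-fold changes were seen for 153 of the risen and 32 of the fallen probes. The called probes covered 136 genes that rose and 23 that fell. At 246 of the 249 probes the treated arrays did not overlap the water arrays, as was also so for 10.8% of all probes (6.16% with every treated array above and 4.69% with every one below). With the array labelled replicate 3 included, 69 probes were called, 61 higher and 8 lower, and 65 of these were among the 249. That array read within the water range at 103 of the 249 probes, beyond it on the treated side at 84 and beyond it on the other side at 62.

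Fatty acid omega-hydroxylases had the largest rises among the named genes. Cyp4a31 and Cyp4a14 belong to a P450 family that oxidises the far end of fatty acids. Cyp4a31 read 9.65, 8.89, 10.31 and 10.43 on water and 16.46, 16.93 and 16.80 on PFOA, with 10.89 on the array labelled replicate 3. Every treated array lay far above every water array, and the log2 difference was 6.91 ± 0.57 (SE), 120-fold, with a limma adjusted p of 1.72e-09. The water values lie near the array median of 9.14, so the size of the fold rests on low signals. Cyp4a14 read 11.79, 12.78, 15.47 and 14.76 on water and 20.26, 20.28 and 20.21 on PFOA, with 11.65 on the array labelled replicate 3. The water arrays were spread widely while the treated arrays nearly coincided near the top of the scale, where only 0.253% of all values exceed 20. Its log2 difference was 6.55 ± 1.49 (SE) with an adjusted p of 0.0189, and 4.40 with an adjusted p of 0.318 when the array labelled replicate 3 was included. The error pools the spread of all groups in the fit. Null mice on water were spread more widely than wild type on water, at 7.23, 12.53, 6.63 and 14.15. The Cyp4a14 call was lost when treated replicate 1, 2 or 4 or water replicate 1 or 2 was left out (adjusted p up to 0.0954), while its log2 difference stayed between 5.91 and 6.57 in those fits.

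The omega-oxidation group had 9 measured members, of which 3 rose and 1 fell, with a median log2 difference of 0.00. Over all probes 0.826% rose and 0.158% fell, and each list count at 1 mg/kg is to be set beside these shares. Aldh3a2, the aldehyde dehydrogenase that completes omega-oxidation and clears fatty aldehydes, rose by 2.29 ± 0.29 (adjusted p 7.24e-06). Cyp4f14, which omega-hydroxylates leukotrienes, went the other way. It read 18.04, 18.35, 18.49 and 18.57 on water and 17.42, 16.71 and 17.21 on PFOA, so the groups did not overlap. The difference of -1.25 ± 0.29 had an adjusted p of 0.0234, which reached 0.234 without treated replicate 2, and the call held in 2 of 7 fits that each left out 1 array. Cyp4f13, its close relative, had a log2 difference of 0.00.

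Peroxisomal beta-oxidation was represented by 21 genes, of which 8 rose and none fell (median log2 0.43), where 0.826% of all probes rose and 0.158% fell. The call count was 3 with the array labelled replicate 3 included. Ehhadh, the peroxisomal bifunctional enzyme, read 15.74, 15.92, 16.38 and 16.30 on water and 20.17, 20.01 and 20.31 on PFOA. It was 15.94 on the array labelled replicate 3, inside the water range. Its rise of 4.08 ± 0.26 on the log2 scale, 16.9-fold, had a limma adjusted p of 1.03e-11. Crat, which moves acetyl groups onto carnitine, rose by 2.36 ± 0.47, and Ech1, which shifts double bonds of unsaturated fatty acids, by 1.92 ± 0.22. Decr2, Eci2 and the thiolase Acaa1a rose by 1.44, 1.38 and 1.28. Their calls held in all 7 fits that left out 1 array, whereas those of Acaa1b (1.23) and Acad11 (0.77) reached adjusted p values of 0.275 and 0.0704 without treated replicate 2. Acaa1b read 19.57, 19.59, 19.58 and 19.76 on water and 21.25, 21.55 and 19.75 on PFOA. Its groups overlapped, with treated replicate 4 inside the water range.

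Members of the same pathway with small differences included Cat, the peroxisomal catalase (0.09), Scp2 (0.09) and Phyh (0.20), none of them called. Hsd17b4, the D-specific bifunctional enzyme, had a missing value on 1 array of the series and was not in the main test. In the fit that kept probes with missing values, Hsd17b4 differed by 1.28 ± 0.41 with an adjusted p of 0.208. Among 14 genes of peroxisome assembly and division, 3 rose, with a median of 0.26. Pex11a, which elongates peroxisomes before they divide, read 15.71, 15.15, 14.99 and 15.11 on water and 17.24, 17.86 and 17.27 on PFOA. The groups were well apart, and the log2 difference of 2.22 ± 0.38 had an adjusted p of 0.000947. The membrane-insertion factors Pex19 (0.86) and Pex3 (0.74) passed more narrowly, with adjusted p values of 0.268 and 0.0972 when treated replicate 2 was left out. With the array labelled replicate 3 included, none of the 14 was called, and Pex11a had a log2 difference of 1.63 with an adjusted p of 0.12.

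Acyl-CoA thioesterases, which split fatty acyl-CoA into free acid and CoA, had 4 risen genes of 10 measured and a median of 0.60. Acot1 read 12.22, 12.17, 13.25 and 13.88 on water and 17.81, 18.33 and 18.19 on PFOA, and 16.47 on the array labelled replicate 3. All treated arrays lay above all water arrays, with a difference of 5.23 ± 0.52 (adjusted p 1.49e-07). The null mice already read 15.17 on water and 15.94 on PFOA. Acot3, a peroxisomal relative, rose by 4.59 ± 0.78 and Acot8 by 1.40 ± 0.21. Acot12, a cytosolic acetyl-CoA hydrolase, rose by 0.69 (adjusted p 0.0247, and 0.146 without treated replicate 4). The mitochondrial Acot2 had a log2 difference of 3.11 ± 0.93 that did not pass (adjusted p 0.12). Acot1, Acot2 and Acot3 are close copies of each other, and the probes may not tell them apart. Of the 10, 2 were called with the array labelled replicate 3 included.

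Mitochondrial beta-oxidation had 15 measured genes, of which 6 rose, none fell and the median was 0.79. The auxiliary enzymes for unsaturated fatty acids were among the largest, Eci1 at 1.93 ± 0.20 and Decr1 at 1.77 ± 0.18. The carnitine-acylcarnitine carrier Slc25a20 rose by 1.45 ± 0.24 and the long-chain dehydrogenase Acadl by 1.20 ± 0.21. Hadhb, the thiolase subunit of the trifunctional protein, read 16.78, 16.67, 16.69 and 16.89 on water and 17.75, 17.78 and 18.07 on PFOA. Both groups were tight and did not overlap, for a difference of 1.11 ± 0.15 (adjusted p 2.05e-05). A second Hadhb probe rose by 1.36. Hadha, the partner subunit, had a similar log2 difference of 1.19 ± 0.32 that missed the threshold (adjusted p 0.0604). Acadvl rose by 0.66, with an adjusted p of 0.171 without treated replicate 4.

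Cpt1a, the gatekeeper of mitochondrial fatty acid entry, was read by a probe with low and scattered signal, 8.94, 8.10, 7.77 and 9.15 on water and 7.38, 9.01 and 10.08 on PFOA. The groups overlapped, and the difference was 0.33 ± 0.73 (adjusted p 0.927). Its sign turned to -0.29 when treated replicate 4 was left out. With the array labelled replicate 3 included, 2 of the 15 mitochondrial genes were called.

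**Figure D2:**
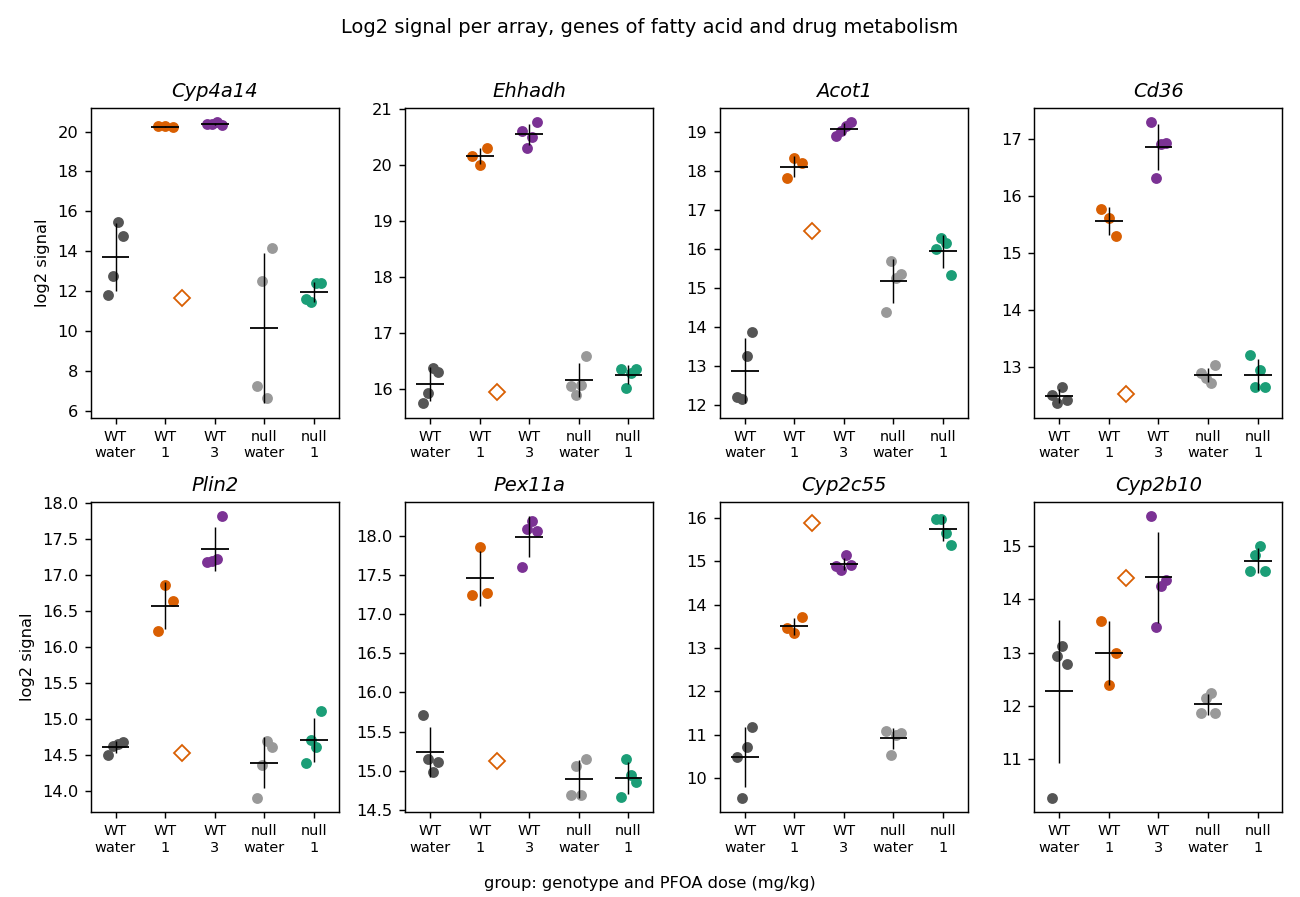
Log2 signal of 8 genes on every array of 5 groups (WT, wild type; null, PPARα-null; 1 and 3, PFOA in mg/kg). Dots are arrays, horizontal bars are means, vertical bars are SDs, and the open diamond is the array labelled replicate 3, which is not in the mean. For the first 6 genes the treated wild-type arrays lie above water and the diamond lies near the null arrays; for Cyp2c55 and Cyp2b10 the null arrays on PFOA lie above null water, and for Cyp2b10 the wild-type arrays at 1 mg/kg overlap water.

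Fatty acid uptake and activation had 17 measured genes, of which 5 rose (median 0.52). Cd36, the fatty acid translocase of the plasma membrane, read 12.51, 12.37, 12.65 and 12.42 on water and 15.77, 15.61 and 15.29 on PFOA. The array labelled replicate 3 read 12.53, and the 3 other treated arrays were far above water. Cd36 rose by 3.07 ± 0.22, 8.37-fold (adjusted p 9.64e-11). The others were smaller: Fabp2 (0.97), Acsl5 (0.92), Slc27a2 (0.84) and the acyl-CoA binding protein Dbi (0.82), and each lost its call without at least 1 array, with adjusted p values up to 0.16, 0.161, 0.196 and 0.135. Fabp1, the abundant liver fatty acid binding protein, had a log2 difference of -0.09. With the array labelled replicate 3 included, 1 of the 17 genes was called.

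Triglyceride storage genes numbered 20, with 5 risen and a median of 0.44. Mogat1, which joins fatty acids to monoacylglycerol, read 7.28, 8.44, 8.94 and 9.90 on water and 13.53, 13.78 and 13.52 on PFOA. The treated arrays were closely grouped and far above water, with a difference of 4.97 ± 0.60 (limma adjusted p 3.55e-06). The Mogat1 water mean of 8.64 lies below the array median of 9.14, so the size of the rise rests on low signals. Plin2, the coat protein of lipid droplets, read 14.49, 14.62, 14.65 and 14.68 on water and 16.22, 16.86 and 16.64 on PFOA. It rose by 1.97 ± 0.37 (adjusted p 0.0023), and the array labelled replicate 3 read 14.52, at the water level. G0s2, an inhibitor of the triglyceride lipase Pnpla2, rose by 2.75 ± 0.61, while Pnpla2 itself differed by 0.33. The monoglyceride lipase Mgll (1.48) and the droplet-forming protein Fitm2 (1.46) also rose. Without treated replicate 2 the adjusted p values were 0.182 for G0s2, 0.0572 for Mgll and 0.201 for Fitm2. Of the 20 genes, 1 was called with the array labelled replicate 3 included.

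Promoter sequences were searched because PPARα with RXR is known to bind a direct repeat of AGGTCA-like hexamers spaced by 1 base. Of the 136 risen genes, 111 have an entry among the RefSeq promoters of build GRCm38.p6, and the 250 bases before the gene start were searched on both strands. The repeat, 2 copies of AGGNCA with 1 base between them and N standing for any base, was found in 0 of 111 risen genes, 41 of 9403 tested genes (0.436%) and 108 of 27025 genes with a promoter entry (0.4%). The single hexamer AGGTCA, which also lies within some forms of that repeat, occurred in 16 of 111 risen genes (14.4%), 1333 of 9403 tested genes (14.2%) and 4260 of 27025 genes (15.8%). The share in the risen genes was close to that in all tested genes. A match describes these letters in this window only. Among the 16 risen genes with the hexamer, windows are given for the 3 with the largest differences. They are shown 5′ to 3′ on the gene's strand, with the hexamer or its reverse complement in capitals:
Cd36, chr5:17836091-17836146, minus strand, hexamer 228 to 223 bases before the start: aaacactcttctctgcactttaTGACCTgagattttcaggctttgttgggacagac
Treh, chr9:44673145-44673206, plus strand, hexamer 60 to 55 bases before the start: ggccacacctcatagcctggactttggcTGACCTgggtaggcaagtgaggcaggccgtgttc
Plin2, chr4:86670244-86670305, minus strand, hexamer 218 to 213 bases before the start: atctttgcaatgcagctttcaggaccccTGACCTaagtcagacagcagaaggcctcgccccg
In all 3 windows the letters on the gene's strand are the reverse complement, TGACCT. Treh, which encodes the trehalose-splitting enzyme trehalase, rose by 2.50 ± 0.34 (adjusted p 2.57e-05).

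Genes known to respond to fasting and PPARα outside fat oxidation had the highest median of the lists, 1.04 over 10 genes, but 1 of them was called. Retsat, a retinol saturase, read 16.56, 17.47, 16.98 and 16.97 on water and 19.17, 19.08 and 19.56 on PFOA, a rise of 2.27 ± 0.24 (adjusted p 3.06e-07). It was 15.73 on the array labelled replicate 3, below every water array. Pdk4, which switches off pyruvate oxidation, read 10.34, 10.77, 13.14 and 11.77 on water and 13.92, 13.55 and 14.21 on PFOA. The groups did not overlap, yet with the spread of this probe over all arrays the difference of 2.39 ± 0.99 gave an adjusted p of 0.364. Fgf21, a hepatic hormone of fasting, differed by 1.91 ± 0.55 (adjusted p 0.102), and Angptl4, an inhibitor of lipoprotein lipase, by 1.64 ± 0.73 (adjusted p 0.412). Ppara itself differed by 0.55 ± 0.23 (adjusted p 0.35). Vnn1, a pantetheinase, lacked a value on the array labelled replicate 3 and was outside the main test. In the fit that kept probes with missing values Vnn1 rose by 4.05 ± 0.65 (adjusted p 0.000444), from 10.86, 10.85, 10.86 and 10.81 on water to 14.39, 15.18 and 15.13 on PFOA.

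**Figure D3:**
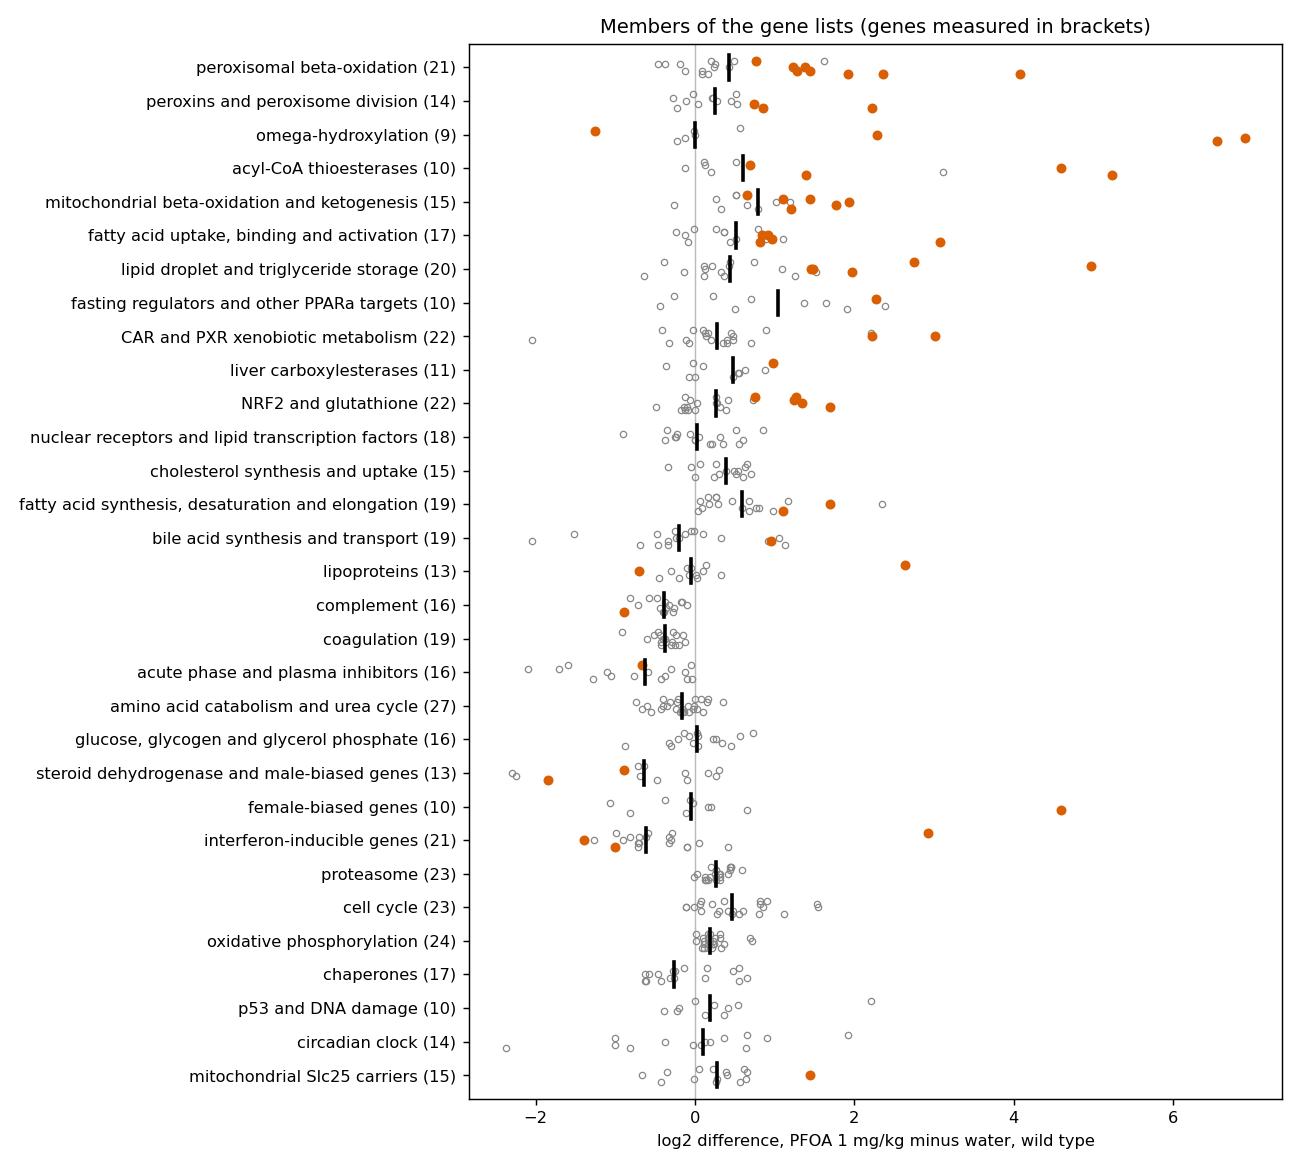
Log2 difference between PFOA 1 mg/kg and water in wild type for each measured member of 31 gene lists. Filled circles are genes with a limma adjusted p under 0.05, open circles the others, and the black bar is the list's median. In the fatty acid lists the filled circles lie to the right, except Cyp4f14 at -1.25. The plasma protein lists have negative medians with few filled circles.

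Drug-metabolism genes of the CAR and PXR pathways had 2 risen members of 22 (median 0.28), where 0.826% of all probes rose. With the array labelled replicate 3 included, 1 was called. Cyp2c55, a P450 that oxidises arachidonic acid, read 10.50, 9.55, 10.73 and 11.18 on water and 13.45, 13.34 and 13.72 on PFOA, a rise of 3.01 ± 0.40 (adjusted p 2.05e-05). The array labelled replicate 3 read 15.87, above all of these and within the 15.38 to 15.98 of null mice on the same dose. Alas1, which starts haem synthesis, rose by 2.22 ± 0.49 (adjusted p 0.0151), and its adjusted p was 0.0877 without treated replicate 2. Cyp2b10, the usual marker of CAR, read 10.28, 12.93, 13.13 and 12.78 on water and between 12.39 and 13.59 on PFOA. The groups overlapped, and the difference of 0.71 ± 0.61 had an adjusted p of 0.756. Nr1i3, which encodes CAR, differed by 0.35 ± 0.20, and Slco1a4, an uptake transporter, by -2.05 ± 0.65 (adjusted p 0.162).

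Glutathione and redox genes had 5 risen members of 22 (median 0.27), and 2 with the array labelled replicate 3 included. Me1, which supplies NADPH, rose by 1.70 ± 0.36, Srxn1, which repairs oxidised peroxiredoxins, by 1.35 ± 0.31, and the transferases Gstm4 and Gstt2 by 1.27 and 1.24. Ephx1, the microsomal epoxide hydrolase, rose by 0.75 ± 0.14. The calls of Gstt2 and Ephx1 held in every fit that left out 1 array, while Me1 reached 0.0792 without treated replicate 1 and Srxn1 and Gstm4 reached 0.129 and 0.0567 without treated replicate 4. Me1, Srxn1 and Ephx1 are known NRF2 targets, as are Hmox1 (-0.12), Gclc (-0.12) and Gclm (-0.49), which were not called. Ces1g, the called member among 11 carboxylesterases, rose by 0.98 ± 0.24 (adjusted p 0.0381, and 0.193 without treated replicate 1).

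Lipid synthesis and transport lists gave few calls. All 19 genes of fatty acid synthesis and desaturation had differences above 0, with a median of 0.59, against -0.0013 for all probes. The share of all probes above 0 was not counted. Of the 19 genes, 2 passed: Me1 and Fads2, the delta-6 desaturase, at 1.10 ± 0.22 (limma adjusted p 0.00395). Scd1, the stearoyl-CoA desaturase, had a larger difference of 2.35 ± 0.72 that did not pass (adjusted p 0.137). Pltp, the phospholipid transfer protein of plasma lipoproteins, read 12.43, 11.60, 11.93 and 11.98 on water and 14.98, 14.32 and 14.59 on PFOA. The groups were apart by more than their spread, and the rise was 2.64 ± 0.25 (adjusted p 4.14e-08). Apom, an HDL protein that carries sphingosine 1-phosphate, fell by 0.70 on the log2 scale (adjusted p 0.0342, and 0.219 without treated replicate 1). None of 15 cholesterol synthesis genes was called (median 0.39).

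Bile acid genes had 1 risen member of 19, where 0.826% of all probes rose. It was the canalicular phospholipid exporter Abcb4 (0.95 ± 0.23, limma adjusted p 0.0359, and 0.195 without treated replicate 2). Cyp7a1, the rate-limiting enzyme of bile acid synthesis, read 13.77, 12.98, 12.20 and 10.78 on water and 13.81, 13.50 and 13.38 on PFOA, which overlapped (1.13 ± 0.85, adjusted p 0.703). None of 18 nuclear receptors and lipid transcription factors was called (median 0.02).

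Genes outside lipid and drug metabolism were among the largest rises. Krt23, a keratin, read 10.43, 10.22, 9.25 and 10.95 on water and 15.16, 15.87 and 15.42 on PFOA. Hes7, a repressor of the Notch-linked bHLH family, read 9.58, 10.97, 10.79 and 10.01 on water and 15.35, 15.51 and 15.90 on PFOA. No treated array came near a water array for either gene, and the rises were 5.27 ± 0.58 (adjusted p 6.79e-07) for Krt23 and 5.25 ± 0.54 (adjusted p 2.07e-07) for Hes7. On the array labelled replicate 3 they read 10.95 and 11.63. The ETS factors Etv6 and Etv5 rose by 3.27 ± 0.40 and 2.64 ± 0.34. Osbpl3, an oxysterol-binding protein homologue, rose by 3.33 ± 0.55, and Amn, the amnionless subunit of the vitamin B12 receptor, by 3.05 ± 0.47. Cox6b2 rose by 2.68 ± 0.46 (adjusted p 0.000916).

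Krt23 is also in the list of cholangiocyte markers, where it was the member called of 5 measured. The other members differed by -0.46 for Krt7, 0.93 for Krt19, -0.48 for Epcam and -0.72 for Sox9, none of them called. Ston1, an endocytic adaptor, rose by 4.82 ± 0.92 (adjusted p 0.00291) on one probe, while its other probe, whose mean signal of 7.87 is below the array median of 9.14, differed by -0.09. For Tnks, a probe with a mean signal of 9.55 rose by 3.17, and one with a mean signal of 12.96 differed by 0.08.

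Falls were fewer, and the largest falls were smaller than the largest rises. Hsd3b2, a 3-beta-hydroxysteroid dehydrogenase, read 16.12, 16.02, 16.03 and 16.36 on water and 14.15, 14.55 and 14.15 on PFOA. The array labelled replicate 3 read 16.55, above all water arrays, and the 3 other treated arrays were clearly lower (-1.85 ± 0.34, adjusted p 0.00229). Its male-biased relatives Hsd3b5 and Hsd3b4 had larger differences, -2.29 ± 0.68 and -2.25 ± 0.67, which did not pass (adjusted p 0.116 and 0.122). In the list of steroid dehydrogenase and male-biased genes, 2 of 13 fell, Hsd3b2 and C8b, where 0.158% of all probes fell. The list's median was -0.64.

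Avpr1a, the vasopressin receptor of hepatocytes, read 13.14, 12.78, 14.03 and 13.82 on water and 11.54, 11.89 and 12.20 on PFOA (-1.57 ± 0.36, adjusted p 0.0191). Leap2, an antimicrobial peptide that also blocks the ghrelin receptor, fell by 1.35 on the log2 scale, and Slc13a2, a citrate and succinate transporter, fell by 1.50. Gulo, the last enzyme of vitamin C synthesis in mice, fell by 1.08 (adjusted p 0.00124). The treated arrays of these genes were below every water array. Of the 10 falls that the naming rule picked, Hsd3b2 and Ifitm3 were called in all 7 fits that left out 1 array. The highest adjusted p was 0.117 for Avpr1a and 0.132 for Slc13a2 without treated replicate 1, 0.0871 for Ppp1r1b and 0.254 for Lrtm1 without treated replicate 4, and 0.176 for Leap2, 0.133 for Zfp870 and 0.0942 for Vmn1r41 without treated replicate 2. Vmn1r41 encodes a vomeronasal receptor, a class not known to be used in liver. Over 582 probes for genes of such classes the median difference was -0.17, and 2 were called lower and 0 higher. Over all probes 0.158% were lower and 0.826% higher, and Vmn1r41 is 1 of the 2. The part of such probes in the falls was not tested.

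Interferon-inducible genes had 21 measured members, with a median of -0.61, 1 risen and 2 fallen, where 0.826% of all probes rose and 0.158% fell. Ifitm3, which blocks virus entry at endosomes, read 18.79, 18.85, 18.84 and 18.66 on water and 17.71, 17.25 and 17.23 on PFOA (-1.39 ± 0.18, adjusted p 8.03e-06). Ifitm1 read 17.07, 16.63, 16.83 and 16.76 on water and 15.82, 15.79 and 15.83 on PFOA, 2.01-fold lower (adjusted p 0.000303). Both groups of arrays were tight and apart. A second Ifitm1 probe, with a mean signal of 9.36, differed by 0.15 (adjusted p 0.938). Ifi27l2b, of a family of interferon-induced membrane proteins, went the other way, with 10.11, 9.59, 10.30 and 10.42 on water and 12.70 to 13.41 on PFOA (2.93 ± 0.44, adjusted p 0.000134). The array labelled replicate 3 read 18.65 for Ifitm3, at the water level, but 12.93 for Ifi27l2b, at the treated level, and null mice on PFOA averaged 12.77. Usp18 (-0.99), Gbp2 (-0.90) and Irf7 (-0.82) were not called.

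**Figure D4:**
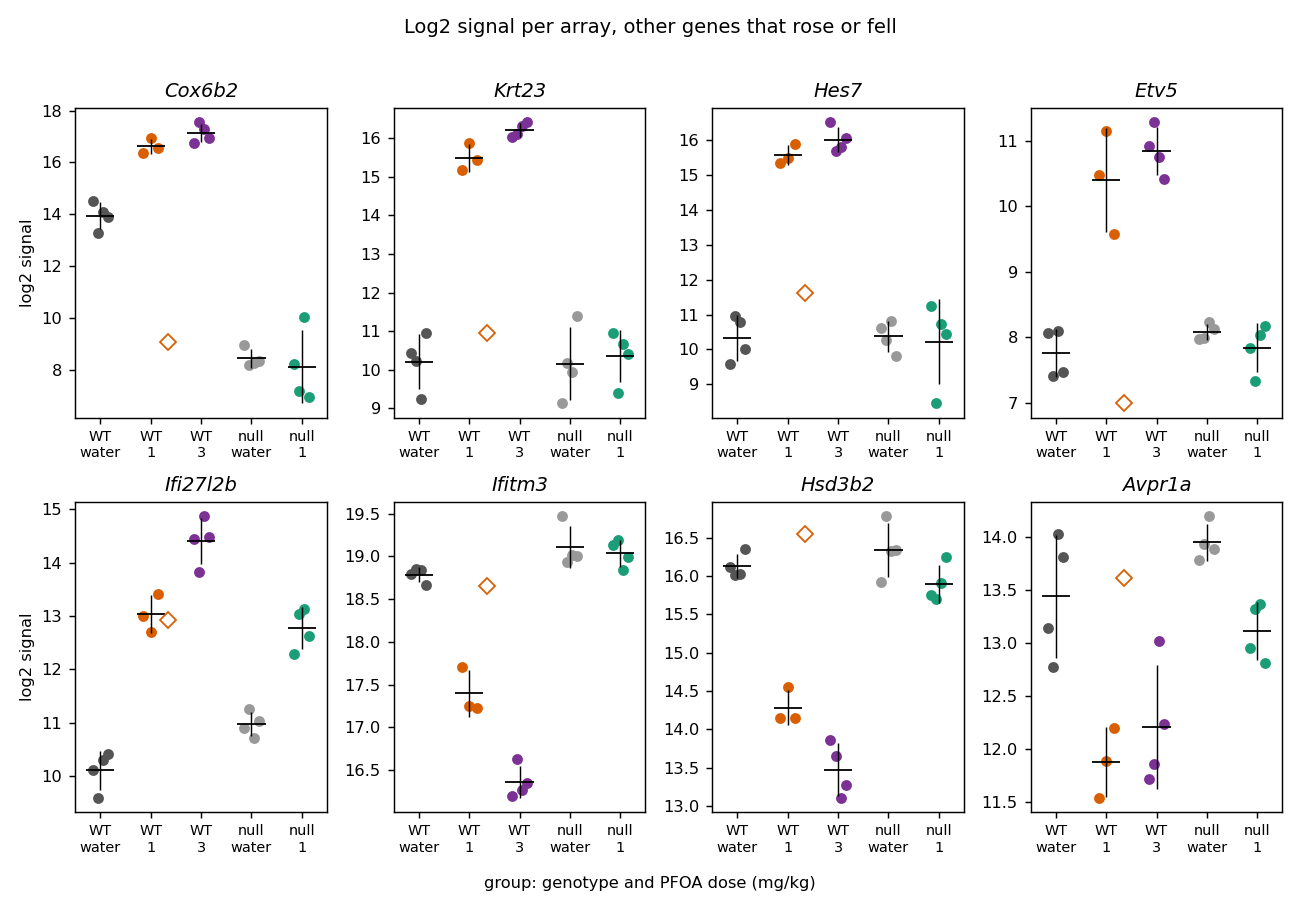
Log2 signal of 8 further genes on every array of 5 groups (WT, wild type; null, PPARα-null; 1 and 3, PFOA in mg/kg). Dots are arrays, horizontal bars are means, vertical bars are SDs, and the open diamond is the array labelled replicate 3; Ifitm3, Hsd3b2 and Avpr1a are lower in the treated wild-type arrays, and Ifi27l2b is higher in them. Its null arrays on PFOA lie above null water by 1.80, which did not pass.

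The lists of plasma proteins made by hepatocytes had negative medians and few calls. Every one of 16 complement genes, 19 coagulation genes and 16 acute phase genes had a treated mean below the water mean. Their medians were -0.38, -0.37 and -0.63, against -0.0013 for all probes, and the share of all probes below 0 was not counted. Of these genes 1, 0 and 1 were called, where 0.158% of all probes were lower. The called genes were the terminal complement subunit C8b (-0.89 ± 0.22, adjusted p 0.0389) and Itih2 (-0.67 ± 0.14, adjusted p 0.0104), a hyaluronan-linked inhibitor chain. C8b was called in 0 of 7 fits that left out 1 array, and Itih2 in 5, with adjusted p values up to 0.174 and 0.112. C9 (-0.71), F11 (-0.92) and Fgb (-0.51) did not pass. The differences furthest from 0 in the acute phase list did not pass either, at -2.10 ± 0.84 for the fibrinogen-like Fgl1, -1.70 ± 0.92 for Orm2 and -1.59 ± 0.79 for A2m. At 3 mg/kg, which uses the same water arrays, 11 of the complement, 14 of the coagulation and 4 of the acute phase genes were lower, where 2.61% of all probes were lower, and the medians were -0.82, -0.64 and -0.64.

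Beside the cholesterol, coagulation and nuclear receptor lists, the pathway lists with no called gene were the proteasome (23 genes, median 0.26), the cell cycle (23 genes, 0.47), oxidative phosphorylation (24 genes, 0.19), chaperones (17 genes, -0.26), amino acid catabolism (27 genes, -0.16), glucose metabolism (16 genes, 0.03), the p53 list (10 genes, 0.18) and the clock (14 genes, 0.11). All 24 oxidative phosphorylation genes differed by more than 0, none of them called, and the median over all probes was -0.0013. The share of all probes above 0 was not counted, so this sign count has no baseline here.

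Cell-type markers were measured in the same fit. Hepatocyte markers had 7 members and none called (median -0.31). Treated means were above water for 2 of the 7, Alb and Ttr (0.00), and below it for the others, such as Fgb (-0.51), Apoa1 (-0.45) and Ahsg (-0.43). Alb read 20.56 to 20.69 on water and 20.70 to 21.20 on PFOA, a difference of 0.30 ± 0.23 (limma adjusted p 0.718). Kupffer cell markers had 10 members, all with treated means below water and none called (median -0.39, against -0.0013 for all probes). Their summed level was 16.98 to 17.19 on water and 16.38 to 17.03 on PFOA. Their part in the interferon values was not tested. The median was 0.02 for 13 endothelial genes, -0.03 for 9 stellate cell genes, 0.04 for 9 lymphocyte genes, -0.06 for 6 neutrophil genes, 0.37 for 4 red cell genes, -0.27 for 7 pancreas genes and 0.20 for 4 adipocyte genes, none of them called.

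The dose of 3 mg/kg shares its water arrays with 1 mg/kg, so the 2 sets of differences are given side by side and the doses were compared directly. Against water, 3 mg/kg gave 1572 called probes (6.21%), 913 higher (3.61%) and 659 lower (2.61%). The difference against water at 1 and 3 mg/kg was 4.08 and 4.47 for Ehhadh, 6.55 and 6.69 for Cyp4a14, 5.25 and 5.69 for Hes7, and 5.23 and 6.19 for Acot1. It was 2.22 and 2.75 for Pex11a, 1.97 and 2.75 for Plin2, and 3.05 and 5.29 for Amn. Among genes that did not pass at 1 mg/kg, it was 2.39 and 4.97 for Pdk4, -2.29 and -4.85 for Hsd3b5, and 0.71 and 2.13 for Cyp2b10. Some called genes were nearer to water at the higher dose, with -1.57 and -1.23 for Avpr1a, 1.86 and 0.93 for Dok4, 0.80 and 0.75 for Acsf3 and 0.76 and 0.67 for Bfar. None of these was called between the doses. The direct difference, 3 minus 1 mg/kg, was 0.34 ± 0.36 for Avpr1a, -0.05 ± 0.16 for Acsf3 and -0.09 ± 0.19 for Bfar.

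Tested directly between the doses, 2 of 25295 probes (0.00791%) differed, against 1247 at an unadjusted p under 0.05, which is about what that threshold passes when nothing differs. Cd36 was higher at 3 mg/kg, at 17.29, 16.31, 16.90 and 16.92, by 1.30 ± 0.22 (adjusted p 0.0235). Ifitm3 was lower at 3 mg/kg, at 16.20, 16.63, 16.27 and 16.35, a difference of -1.03 ± 0.18 (adjusted p 0.0235). Neither gene overlapped between the doses. Both calls were lost without replicate 2 at 1 mg/kg or replicate 3 or 4 at 3 mg/kg, and 1 probe was called without replicate 1 or 4 at 1 mg/kg. For Ehhadh the difference was 0.39 with a 95% interval of -0.14 to 0.92, for Krt23 0.72 (-0.46 to 1.91) and for Acot1 0.97 (-0.10 to 2.04). The proteasome had 0 called genes at 1 mg/kg and 11 at 3 mg/kg, all higher, and a median difference between the doses of 0.21 with none called.

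PPARα-null mice on the same dose had 3 called probes against their own water arrays (0.0119%), all higher: Cyp2c55 (4.83 ± 0.37), Ces1g (1.52 ± 0.22) and Cnmd (1.88). At an unadjusted p under 0.05 there were 1052. These arrays are not shared with the wild-type comparison. Over the 209 probes that rose in wild type the null difference had a median of 0.15 and a range of -1.22 to 4.83, 145 of them were above 0, and 13 were at least 2-fold higher in null mice. Over the 40 that fell, the null median was -0.26, 35 were below 0, and 2 were at least 2-fold lower. The null median over all probes was -0.0087. The shares of all probes beyond 0 or 2-fold in null mice were not counted, so these counts have no baseline here.

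The test of the null against the wild-type response called 41 probes (0.162%), with the null response lower at 39 and higher at 2. Hes7 differed by -5.40 ± 0.74 between genotypes, Mogat1 by -5.36 ± 0.81, Krt23 by -5.07 ± 0.79 and Acot1 by -4.46 ± 0.71. For Ehhadh it was -3.98 ± 0.36 and for Cd36 -3.06 ± 0.30. The Mogat1 value rests on low signals, with a wild-type water mean of 8.64 below the array median of 9.14. Null values of Ehhadh were 16.06, 15.90, 16.07 and 16.59 on water and 16.36, 16.01, 16.28 and 16.36 on PFOA, and they overlapped. Ifitm3 had the opposite sign, 1.32 ± 0.24 (adjusted p 0.00709), with a null difference of -0.08. With the array labelled replicate 3 counted as wild type, 0 probes were called by limma in this test, and 1274 had an unadjusted p under 0.05.

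The Cyp4a31 response was smaller in null than in wild-type mice, with a difference between the responses of -4.19 ± 0.77 (adjusted p 0.0081). Its null values were 7.27, 7.92, 7.05 and 8.80 on water, all below the array median of 9.14, and 11.02, 10.01, 10.87 and 10.05 on PFOA. These did not overlap, and the null difference was 2.72 ± 0.52 (adjusted p 0.0529). For Cyp4a14 the difference between the responses was -4.73 with a 95% interval of -8.88 to -0.58 and was not called (adjusted p 0.805). Cyp2c55 rose in both genotypes, by 3.01 in wild type and 4.83 in null mice, and the difference of 1.81 ± 0.55 was not called (adjusted p 0.386). Alas1 (2.22 and 1.78), Ifi27l2b (2.93 and 1.80) and Amn (3.05 and 1.70) also had sizeable null differences that did not pass in null mice.

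**Figure D5:**
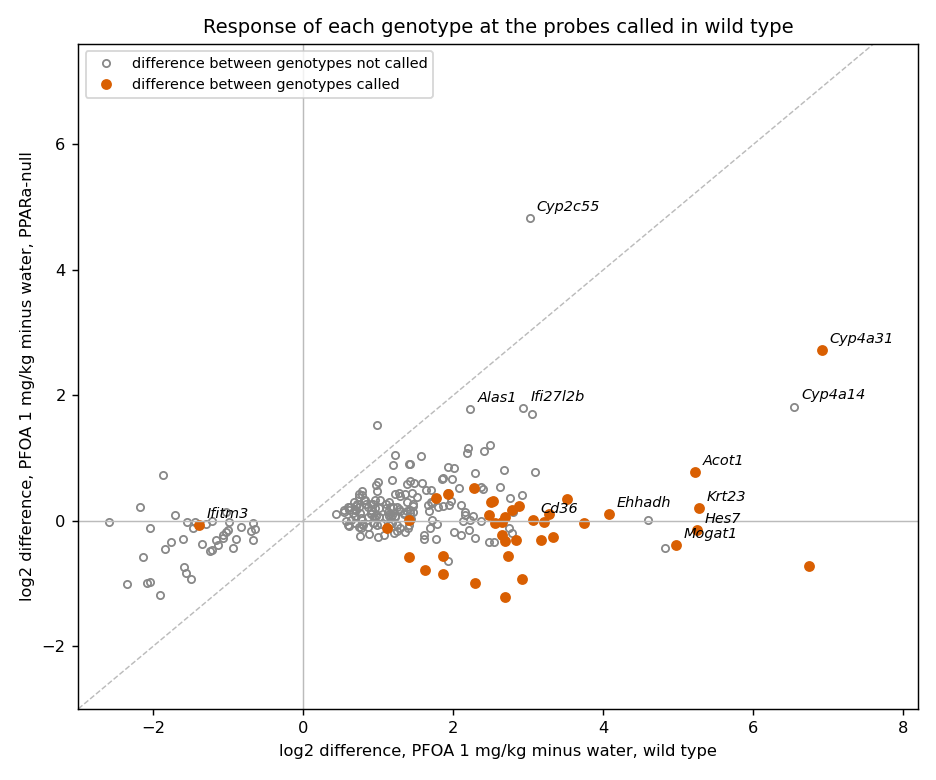
Log2 difference between PFOA 1 mg/kg and water in PPARα-null mice (vertical) against that in wild type (horizontal) at the 249 probes called in wild type. Filled circles are probes at which the responses differ between genotypes by limma, and the dashed line marks equal responses; most risen probes lie near 0 on the vertical axis, and Cyp2c55 lies above the line.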

How the data were processed

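Per the labels, liver RNA was amplified once into digoxigenin-labelled cRNA and hybridised to Applied Biosystems arrays. The authors deposited log2 signals with the same median, 9.14, on every array. The base of the logarithm is read from the range of the values, 4.85 to 21.5, and no source used here names the software, the background correction or the normalisation. The arrays have no counts, and their number limits the precision.

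Of 33012 probes, 14411 have 1 gene symbol in the probe table, 247 several and 18354 none. Testing used the 25295 probes measured on all 39 arrays, and 7717 with a missing value were left out. Among the tested probes, 12029 have 1 symbol and cover 11591 genes. Where a gene has several probes, the one with the highest mean signal stands for it.

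A limma model (version 3.58.1, R 4.3.3) with a mean for every group and moderated variances was fitted to the log2 values of 38 arrays, leaving 28 residual degrees of freedom. Replicate 3 of wild type on 1 mg/kg, as labelled, was left out. Tests are two-sided, with Benjamini-Hochberg adjustment over all tested probes and a threshold of 0.05. Errors with a difference are standard errors. On simulated data with these arrays' spread, 2% of probes changed by 0.5 on the log2 scale were called, 36% at 1, 70% at 2 and 96% at 4, and 7 of 109 calls were false. The simulated noise was independent between arrays and probes, with the same spread in every group. Array sets and arrays that deviate together were not simulated, so these rates need not hold for the real arrays.

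The naming rule took the 14 largest rises and 10 largest falls whose groups did not overlap, up to 4 genes per direction for the other tests and up to 4 of each list, and a fixed set of genes always reported. It was applied with limits on low signal, and clone-number symbols were not named. The members, the gene lists and the rule were chosen with earlier results of these data known. Other settings tried were the array labelled replicate 3 included, replicate number or array set as a block, groups compared only, within each array set, an index of 582 probes for genes silent in liver as a covariate, probes above the median signal, probes with missing values, median centring, trended and robust variances, the mean of a gene's probes, and leaving out each array.

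Same-numbered arrays at 3 and 1 mg/kg in wild type deviated together (correlations 0.232, 0.254 and 0.246), so the numbers pair those groups by the data, not by the labels. The replicate numbers of water and 1 mg/kg did not (-0.230, 0.041 and 0.149). The labels name 4 animals per group but do not tie arrays to animals, so p-values measure the spread between these samples. Array-set levels at 58 probes split the arrays into 16 and 23, and the labels do not name these sets. Wild type on 1 mg/kg had 1 array in the smaller and 2 in the larger set, and water had 2 in each.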

Additional observations from a re-analysis of the deposited data

Results flagged for a closer look

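In wild type on water, single arrays stood apart from the other 3 at 3 named genes, by a test that chance alone meets in about 1 of 20 groups. Water replicate 3 read 10.84 for Zfp870 against 8.46 to 8.82 on the others. Water replicate 1 read 10.28 for Cyp2b10, with 12.78 to 13.13 on the others. For Apcs, which encodes serum amyloid P, the array that stood apart read 17.54. Without water replicate 3, the Zfp870 difference was -1.04 and was no longer called by limma (adjusted p 0.133).

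The response to 1 mg/kg differed between PPARα-null and wild-type mice at 41 probes. Among named genes the difference of the responses, null minus wild type, was -5.40 for Hes7, -5.36 for Mogat1, -5.07 for Krt23, -4.46 for Acot1 and 1.32 for Ifitm3.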

How the results depend on the processing

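The count of 249 probes at 1 mg/kg was 84 with the groups compared only, 69 with the array labelled replicate 3 included, 98 within the larger and 38 within the smaller array set, and between 134 (without treated replicate 2) and 305 (without water replicate 1) when 1 array was left out, with 150 without treated replicate 4. Other settings gave 213 to 355. With the replicate block it was 321, with 2 between the doses and 48 between the genotypes. The count of 2 between the doses was 0 with the groups compared only, 4 above the median signal, 0 with missing-value probes, 7 with the array labelled replicate 3, 11 and 8 within the larger and smaller array sets, and 0 to 3 when 1 array was left out: 0 without replicate 2 at 1 mg/kg or replicate 3 or 4 at 3 mg/kg, and 1 without replicate 1 or 4 at 1 mg/kg. The count of 41 between genotypes was 0 with the array labelled replicate 3, 9 and 8 within the larger and smaller array sets, and 29 to 41 when 1 array was left out. The restricted comparisons rest on fewer arrays, and the fit with the array labelled replicate 3 on more. The cause of these shifts was not tested. Of 157 called genes with a name, 156 kept their call with the array-set block, 152 with the replicate block, 118 with the silent-gene index, 49 with the groups compared only and 39 with the array labelled replicate 3, and none changed sign. Calls held in all 7 fits that left out 1 array for 72 of them, 68 higher and 4 lower. The silent-gene index was 8.79 to 9.08 on water and 8.73 to 8.94 at 1 mg/kg (exact permutation test, two-sided p 0.114, where 0.0571 is the smallest 3 against 4 arrays allow). The sign turned for Cpt1a (-0.064 with the silent-gene index, and -0.294 to 1.055 when 1 array was left out, the lowest without treated replicate 4 and the highest without treated replicate 1) and Cyp2b10 (-0.043 within the larger array set), neither of them called.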
